A study of Homo sapiens with 6 samples.

Results

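The genes described here encode the machinery of RNA polymerase III (Pol III). They are 6 subunits found in no other polymerase (POLR3A, POLR3B, POLR3C, POLR3D, POLR3E and POLR3G), the initiation factors BRF1 and BRF2, and the repressor MAF1. These 9 genes were chosen by name for their known roles, out of 26485 genes in the deposited count table, with earlier results of these data known. THP1 cells, an established human acute monocytic leukemia line, had been exposed for 6 h either to withaferin A (WFA), a steroidal lactone, or to its vehicle DMSO. The 6 RNA-seq libraries form 2 groups of 3, DMSO and WFA, which share the cell line, the medium and the exposure time. Each replicate number was taken to stand for 1 independent experiment. The dose is 1 μM in the study's methods and 1 mM in the sample labels. The comparison asked how short exposure to WFA changed gene expression.

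Pol III makes a set of short untranslated RNAs, among them transfer RNAs, 5S ribosomal RNA, U6 and 7SK. The enzyme is brought to its genes by TFIIIB, which holds TBP, BDP1 and either BRF1, used at transfer RNA and 5S genes, or BRF2, used at U6-type genes. MAF1 binds the polymerase and blocks its recruitment when nutrient signalling falls or cells are stressed. MYC is known to stimulate Pol III in growing cells.

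Libraries held between 11006035 and 13872810 counted reads, of which the 9 genes took between 4136 and 5635. All 9 passed edgeR's filter on low counts, with 12854 genes tested in all. Of 10 myeloid markers, 9 had over 10 reads in each library, while ELANE had none. Their summed level was 2698 to 3257 CPM (counts scaled to a common library total) with DMSO and 2266 to 3058 with WFA, most of it LYZ (means of 1876 and 1712 CPM). Single markers moved: CD33 (log2 fold change -0.85, edgeR adjusted p = 6.99e-06), PTPRC (-0.48), CSF1R (-0.40) and SPI1 (-0.34) were called lower, and CD68 (0.37) was called higher. HBB, an erythroid marker, had no reads, and 5 T and B cell markers together reached at most 1.96 CPM. The 4 epithelial or fibroblast markers summed to 0.48 to 1.14 CPM with DMSO and to 8.45 to 12.3 CPM with WFA, with COL1A1 at a mean of 0.47 and 9.66 CPM and COL1A2 at 0. The part of these marker levels in the results was not tested. In bulk libraries, a change in the share of cells that express a gene cannot be told apart from a change in RNA per cell.

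The 9 genes are spread over the genome (GRCh38.p14, RefSeq). POLR3A lies on chromosome 10 (77975149 to 78029515), POLR3B on chromosome 12 (106357748 to 106510198), POLR3C on chromosome 1 (145824200 to 145844402) and POLR3E on chromosome 16 (22297409 to 22335096). POLR3G lies on chromosome 5 (90473929 to 90514557) and BRF1 on chromosome 14 (105209286 to 105315589). RefSeq promoter windows of 300 bases, 250 before and 50 after the start, were used for POLR3A, POLR3B, POLR3C, POLR3E and BRF1, in 11 windows. Those of POLR3D, POLR3G, BRF2 and MAF1 were not searched, so BRF1 was the only rising gene covered. The 11 windows were searched on both strands for the E-box CACGTG, to which MYC and its partners bind. AACNG, the core that MYB binds, was searched for in the same way. An E-box stood in 3 of the 11 windows, 1 each of POLR3A, POLR3C and POLR3E, and in 7.26% of all 35116 promoter windows (9.25% of the windows of tested genes). AACNG stood in 9 of the 11 windows, and in 77.2% of all windows (75.2% for tested genes). Counted from the start site, the E-box began at position -35 of POLR3A and at -196 of POLR3C, and the one of POLR3E spanned its start site. The 250 bases before the start follow for 3 genes, since 2 carry the E-box, in capitals, and the third opens inside a gene that Pol III itself transcribes. That gene is TRL-AAG2-4, a leucine transfer RNA gene (chr16:22297140-22297221) that ends 187 bases before the start of POLR3E. The capitals in the POLR3E line mark its B box (searched by its consensus on both strands after the sequence had been seen), the internal element that TFIIIC binds.
POLR3A (chr10:78029516-78029765, minus strand): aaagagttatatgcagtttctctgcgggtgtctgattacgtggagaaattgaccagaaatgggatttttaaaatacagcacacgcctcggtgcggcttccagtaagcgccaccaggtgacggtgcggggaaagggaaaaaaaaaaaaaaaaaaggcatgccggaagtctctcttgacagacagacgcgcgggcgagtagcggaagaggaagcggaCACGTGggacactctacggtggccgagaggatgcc
POLR3C (chr1:145823950-145824199, plus strand): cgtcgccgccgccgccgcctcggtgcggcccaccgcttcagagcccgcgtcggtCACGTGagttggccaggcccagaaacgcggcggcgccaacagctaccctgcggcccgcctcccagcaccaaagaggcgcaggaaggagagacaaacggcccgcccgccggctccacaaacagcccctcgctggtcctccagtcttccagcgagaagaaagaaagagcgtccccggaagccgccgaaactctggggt
POLR3E (chr16:22297159-22297408, plus strand): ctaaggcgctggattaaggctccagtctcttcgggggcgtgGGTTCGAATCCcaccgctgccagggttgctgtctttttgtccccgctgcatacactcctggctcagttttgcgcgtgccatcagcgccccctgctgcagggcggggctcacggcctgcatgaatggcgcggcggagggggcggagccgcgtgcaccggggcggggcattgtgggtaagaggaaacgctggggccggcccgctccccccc
A RefSeq transfer RNA gene overlapped the 250 upstream bases in 0.0797% of all windows, and 0.151% held the B box letters. These matches are descriptions of the letters in the windows.

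With WFA the transcripts of the polymerase subunits fell, while those of both BRF factors and of MAF1 rose. All 6 subunits were lower and BRF1, BRF2 and MAF1 were higher at an adjusted p-value under 0.05 (edgeR quasi-likelihood test, adjusted by Benjamini-Hochberg over all genes tested). Across all genes tested, 24.7% were called lower and 25.8% higher, 50.5% in all, so that a call was common in these data. The median log2 fold change was -0.89 over the 6 subunits and 0.86 over the other 3, beside 0.02 over all genes tested. Over the 9 genes together it was -0.37. POLR3B, POLR3E and POLR3G were over 2-fold lower, a class that held 5.2% of all genes tested. None of the 9 genes was over 2-fold higher, as were 8.11% of all genes. For each of the 9 genes the DMSO and WFA libraries did not overlap in CPM, which was so for 58.1% of all genes. An exact two-sided permutation test then gave p = 0.1, the smallest value that 3 libraries against 3 allow.

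POLR3A and POLR3B are the largest and second largest subunits and together form the active centre. POLR3A had 34.9, 35.0 and 40.7 CPM in DMSO replicates 1, 2 and 3, and 27.4, 29.6 and 30.6 CPM in the WFA replicates. Its lowest DMSO library stood only a little above its highest WFA library, and its fall was the smallest of the 6. The log2 fold change (log2FC) was -0.33 (standard error, SE, 0.11, edgeR adjusted p = 0.0168). This call depended on single libraries, since the edgeR adjusted p was 0.0834 without DMSO replicate 3 and 0.0554 without WFA replicate 1. POLR3B had a larger fitted fall. Its levels were 32.4, 25.6 and 32.4 CPM with DMSO and 13.4, 13.0 and 15.2 CPM with WFA. Each WFA library was well below the lowest DMSO library, with a log2FC of -1.12 (SE 0.13, edgeR adjusted p = 5.43e-06), or 45.9% of the DMSO level. The 95% intervals of the changes, -0.56 to -0.11 for POLR3A and -1.40 to -0.84 for POLR3B, did not overlap. The difference between the 2 changes was not tested.

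POLR3C and POLR3G belong to a trimer of subunits that contacts TFIIIB at initiation. POLR3C, the most counted of the 6 subunits, had 125, 121 and 149 CPM with DMSO and 106, 89.4 and 110 CPM with WFA. The groups were separate, though only narrowly, with a log2FC of -0.37 (SE 0.10, edgeR adjusted p = 0.00777). POLR3G, the least counted, had 9.57, 8.29 and 10.2 CPM with DMSO and 3.59, 4.03 and 2.79 CPM with WFA. This was the largest change among the 9 genes, with a log2FC of -1.42 (SE 0.19, edgeR adjusted p = 2.08e-05), or 37.3% of the DMSO level. Its WFA values rest on 44, 50 and 30 reads. MBLAC2, whose gene overlaps the start of POLR3G in RefSeq, also fell (log2FC -0.88, edgeR adjusted p = 0.000245), and the part of shared reads was not tested.

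POLR3D and POLR3E form a pair of subunits that acts at initiation and termination. POLR3D had 39.3, 37.0 and 44.1 CPM with DMSO and a tight 24.7, 25.4 and 25.0 CPM with WFA. Its log2FC was -0.68 (SE 0.11, edgeR adjusted p = 8.02e-05). POLR3E went from 46.5, 50.4 and 48.4 CPM to 19.8, 28.1 and 19.7 CPM, a log2FC of -1.10 (SE 0.13, edgeR adjusted p = 6.41e-06). WFA replicate 2 kept the highest POLR3E level of its group but was still far below each DMSO library.

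BRF1, the TFIIIB subunit for transfer RNA genes, had 28.8, 30.9 and 30.4 CPM with DMSO and 53.7, 53.8 and 57.6 CPM with WFA. The libraries of each group lay close together, and the level was 1.83-fold higher with WFA (log2FC 0.87, SE 0.09, edgeR adjusted p = 2.49e-06). BRF2, its counterpart at U6-type genes, had 21.5, 21.6 and 20.5 CPM with DMSO and 38.0, 31.7 and 46.1 CPM with WFA. The DMSO values were nearly level and the WFA values more scattered, with a rise of 1.82-fold (log2FC 0.86, SE 0.13, edgeR adjusted p = 6.85e-05). In GENCODE 29, 59.6% of the exonic bases of BRF2 are also exonic in ADGRA2 on the opposite strand. ADGRA2 had 1867 to 3110 reads per library and fell (log2FC -0.36, edgeR adjusted p = 0.00226), in the direction opposite to BRF2. The library kit does not mark strand, so BRF2 reads in the shared bases cannot be told apart from those of ADGRA2, and the value of BRF2 is uncertain. For BRF1, 7.1% of exonic bases are shared with PACS2 (edgeR adjusted p = 0.924) and 2.4% with BTBD6 (log2FC 0.37, edgeR adjusted p = 0.0079).

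MAF1, which encodes the repressor of Pol III, had a smaller fitted rise than the BRF factors, a difference that was not tested. It had 58.5, 55.4 and 47.5 CPM with DMSO and 75.6, 72.8 and 77.9 CPM with WFA. Each WFA library was above the highest DMSO library, and the level was 1.40-fold higher (log2FC 0.49, SE 0.10, edgeR adjusted p = 0.000634). POLR3D, BRF2 and MAF1 all lie on chromosome 8. The MAF1 protein acts when it is dephosphorylated, a state that transcript counts do not show.

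**Figure D1:**
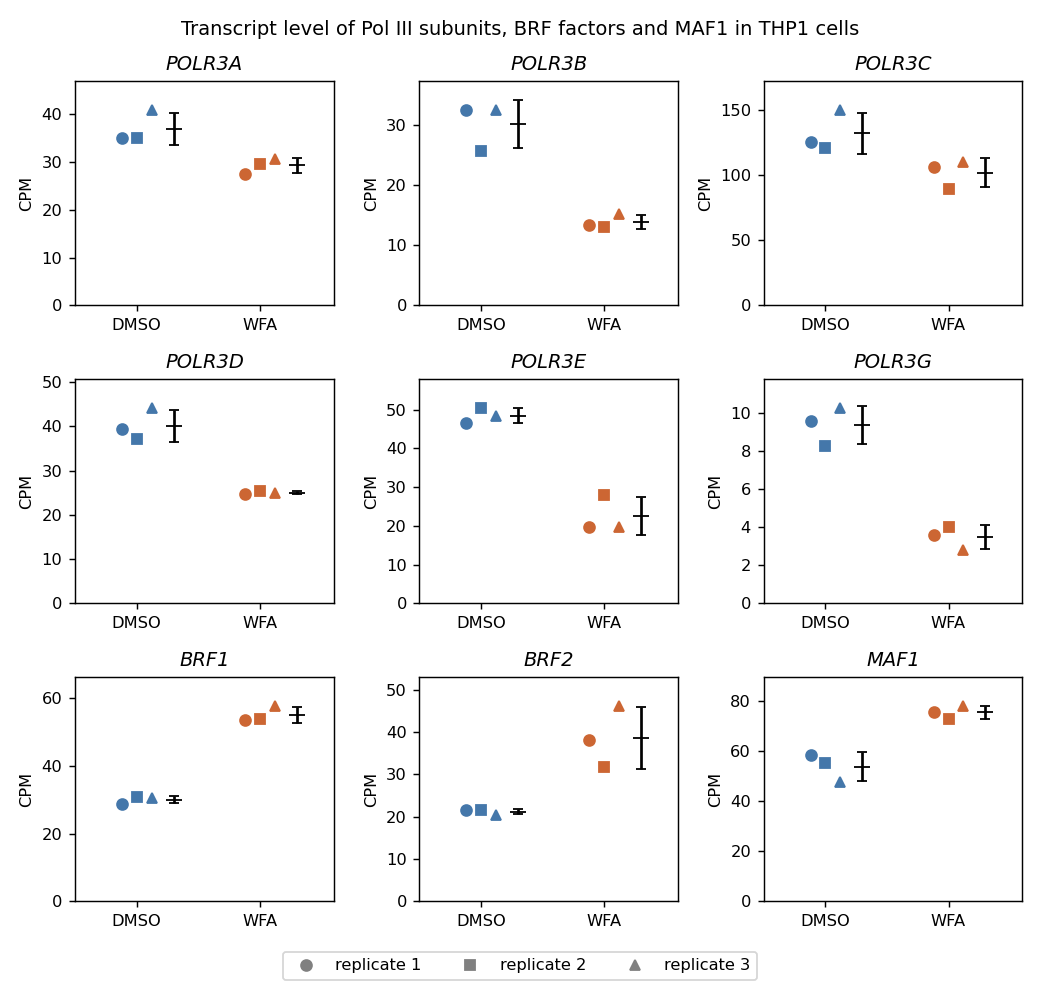
Level of each of the 9 transcripts in CPM (vertical axis, from 0) in the 3 DMSO and 3 WFA libraries, with a marker shape per replicate and the mean ± SD in black. All 6 POLR3 subunits sit lower with WFA, and BRF1, BRF2 and MAF1 sit higher, with no overlap between the groups.

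To compare levels between genes, CPM was divided by the length of the merged GENCODE 29 exons in kb. On this scale the DMSO level was 69.2 ± 8.12 CPM per kb for POLR3C and 27.7 ± 2.93 for MAF1 (SD, n = 3 each). POLR3E followed with a level of 13.0 ± 0.52 CPM per kb (SD, n = 3). BRF2, POLR3D and POLR3B, with levels of 7.76, 7.20 and 6.83 CPM per kb, overlapped as neighbours over the libraries, and so did BRF1 and POLR3A at 5.09 and 4.95 CPM per kb. POLR3G was lowest, at 2.64 ± 0.28 CPM per kb (SD, n = 3). With WFA, POLR3C and MAF1 stayed first and second in level, at 53.5 ± 5.73 and 38.8 ± 1.31 CPM per kb (SD, n = 3 each). The level of BRF2 was then 14.1 ± 2.65 and that of BRF1 9.33 ± 0.38 CPM per kb (SD, n = 3 each). Both were above POLR3E (6.04), POLR3D (4.49), POLR3A (3.93), POLR3B (3.14) and POLR3G (0.98 CPM per kb), and no neighbours in this order overlapped. MAF1 thus came nearer to POLR3C, and both BRF factors moved ahead of POLR3E. The place of BRF2 is uncertain, since 59.6% of its exonic bases are shared with ADGRA2.

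Same-numbered libraries were taken as pairs from the same experiment, by the shared suffix of their labels. All 9 genes kept their direction in each of the 3 pairs, which follows from their groups not overlapping and is no further check. The size varied with the pair. Within pairs, the log2 difference of POLR3G was -1.41, -1.04 and -1.88 in replicates 1, 2 and 3, and that of BRF2 was 0.82, 0.55 and 1.17. The difference was smallest in replicate 2 for 7 of the 9 genes and largest in replicate 3 for 8. Among the 6461 called genes with reads in each library, it was smallest in replicate 2 for 47.0% and largest in replicate 3 for 56.0%, so that each of these was the most frequent place over the called genes too.

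**Figure D2:**
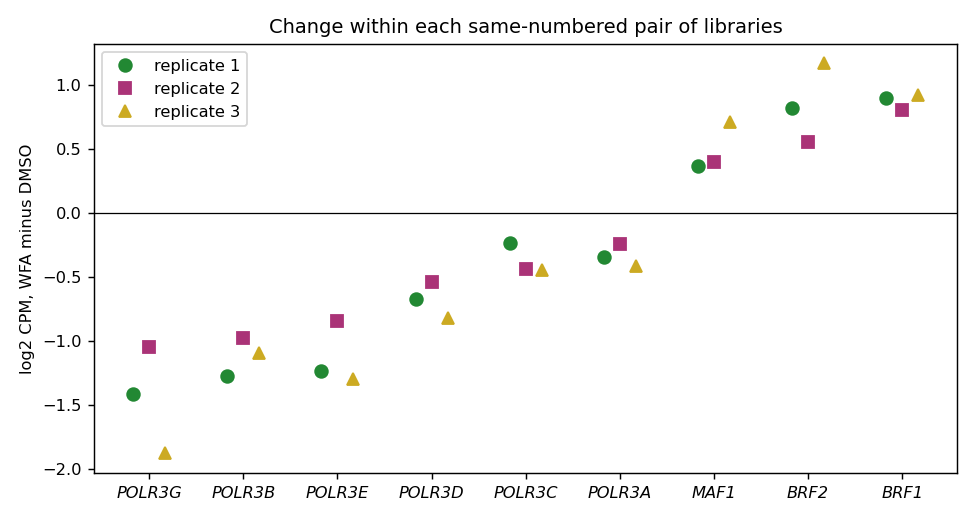
Difference in log2 CPM, WFA minus DMSO (vertical axis), within each pair of same-numbered libraries for the 9 genes, ordered by their fitted log2 fold change. Every point of the 6 subunits is below 0 and every point of MAF1, BRF2 and BRF1 is above it, with replicate 3 the farthest from 0 for 8 of the 9 genes.

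A further 4 subunits particular to Pol III were examined. Of these 2 were lower, beside 24.7% of all genes tested, and 2 did not pass the test. Their median log2 fold change was -0.27. POLR3K, the small subunit that serves RNA cleavage and termination, had a log2FC of -0.55 (SE 0.11, edgeR adjusted p = 0.000905). CRCP, a stalk subunit, had -0.29 (SE 0.09, edgeR adjusted p = 0.0176, and 0.0635 without WFA replicate 2), and 11.9% of its exonic bases are shared with another gene model on the same strand (AC068533.4). POLR3F, the third subunit of the trimer with POLR3C and POLR3G, did not pass (log2FC -0.26, 95% interval -0.53 to 0.01, edgeR adjusted p = 0.106). It shares 2.4% of exonic bases with DZANK1 on the other strand, which fell (log2FC -1.41, edgeR adjusted p = 1.75e-05). Of the 10 Pol III subunit genes reported, 8 were lower.

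POLR3GL is a close relative of POLR3G that takes its place in the enzyme in most differentiated cells, whereas POLR3G is known from stem cells and tumours. POLR3GL had 41.9, 51.7 and 48.1 CPM with DMSO and 52.4, 53.6 and 63.8 CPM with WFA. The highest DMSO library and the lowest WFA library were almost equal, and the gene did not pass the test (log2FC 0.26, 95% interval 0.03 to 0.49, edgeR adjusted p = 0.0579). With the replicate number as a block, under which 59% of all genes were called (30.2% higher and 28.8% lower), it passed (edgeR adjusted p = 0.0104), likewise without DMSO replicate 2 (0.0467) or WFA replicate 1 (0.0432). The edgeR adjusted p was 0.248 without DMSO replicate 1 (log2FC 0.18), 0.235 without WFA replicate 3 (log2FC 0.17) and 0.199 when libraries were scaled by total counts (log2FC 0.18), so the value of POLR3GL rests on single libraries and on the scaling. In POLR3GL, 13.7% of exonic bases are shared with another gene model on the same strand (AC243547.3). A ratio within a library does not depend on how libraries are scaled. For every 100 POLR3GL reads there were 22.8, 16.0 and 21.3 POLR3G reads with DMSO and 6.86, 7.51 and 4.37 with WFA. The log2 ratio fell by 1.69 between the groups, from -2.33 ± 0.27 to -4.02 ± 0.41 (SD, n = 3 each, exact two-sided permutation p = 0.1, the smallest possible). The differences within the 3 pairs were -1.72, -1.09 and -2.27. The ratio of BRF1 to BRF2 was 134, 143 and 148 BRF1 reads per 100 BRF2 reads with DMSO and 141, 170 and 125 with WFA. These ranges overlapped, and the log2 ratio differed by 0.03 (exact two-sided permutation p = 0.9). This ratio carries the uncertainty of BRF2, most of whose exonic bases are shared with ADGRA2.

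**Figure D3:**
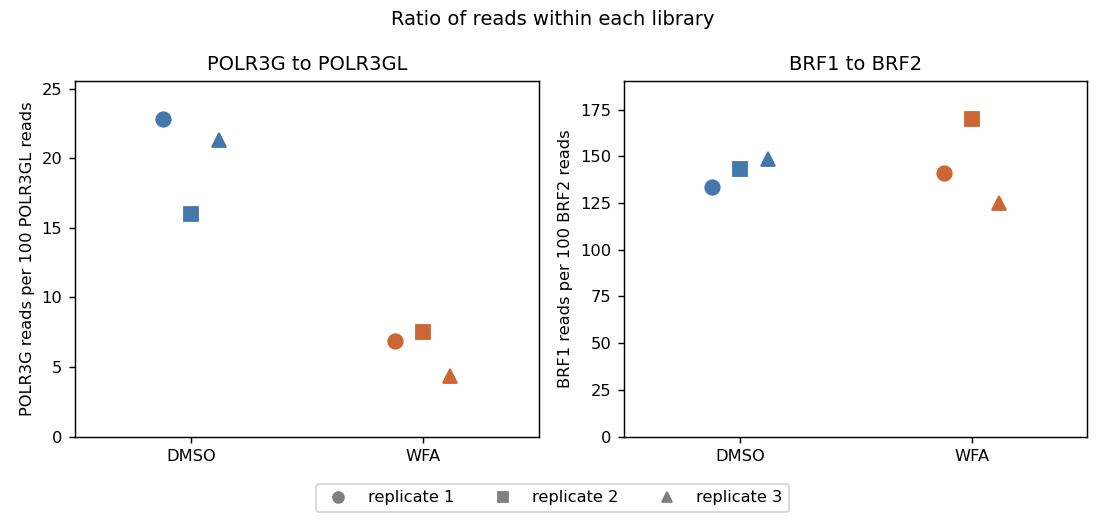
Reads of POLR3G per 100 reads of POLR3GL (left) and of BRF1 per 100 reads of BRF2 (right) in each library, by group (horizontal axis), with a marker shape per replicate. The POLR3G ratio is 16.0 to 22.8 with DMSO and 4.37 to 7.51 with WFA, while the BRF1 ratios of the groups overlap.

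Of the other TFIIIB subunits, TBP was lower and BDP1 was not tested. TBP, shared by all 3 nuclear polymerases, had a log2FC of -0.31 (SE 0.10, edgeR adjusted p = 0.0182). Its call was lost without DMSO replicate 3 (edgeR adjusted p = 0.0569) and without WFA replicate 2 (0.0867). BDP1 had at most 1 read in any library, so its level cannot be read from these counts. TFIIIC, which recognises the internal promoter of transfer RNA genes, and TFIIIA, which recognises the 5S gene, had 7 genes tested. The median log2FC was -0.14. Called lower were 3 and called higher 1, beside 24.7% and 25.8% of all genes tested. The exception was GTF3C3, which rose from 105 ± 0.98 to 198 ± 6.45 CPM (SD, n = 3 in both groups), a log2FC of 0.91 (SE 0.08, edgeR adjusted p = 3.41e-07). GTF3C4 had -0.63 (SE 0.13, edgeR adjusted p = 0.000802) and GTF3C2 had -0.33 (SE 0.08, edgeR adjusted p = 0.0031). Within TFIIIC, 1 subunit thus rose while 2 fell.

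Promoters of the U6 type are read by SNAPc with the activators ZNF143 and POU2F1. Beside 50.5% of all genes tested, 1 of these 7 genes was called, ZNF143. It rose from 31.7 ± 1.85 to 59.9 ± 8.13 CPM (SD, n = 3 in both groups), a log2FC of 0.92 (SE 0.11, edgeR adjusted p = 7.47e-06). No SNAPC gene was called lower by edgeR or DESeq2, with 2 at an unadjusted edgeR p-value under 0.05. With the replicate block 3 of the SNAPC genes were called lower, beside 28.8% of all genes under that fit.

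**Figure D4:**
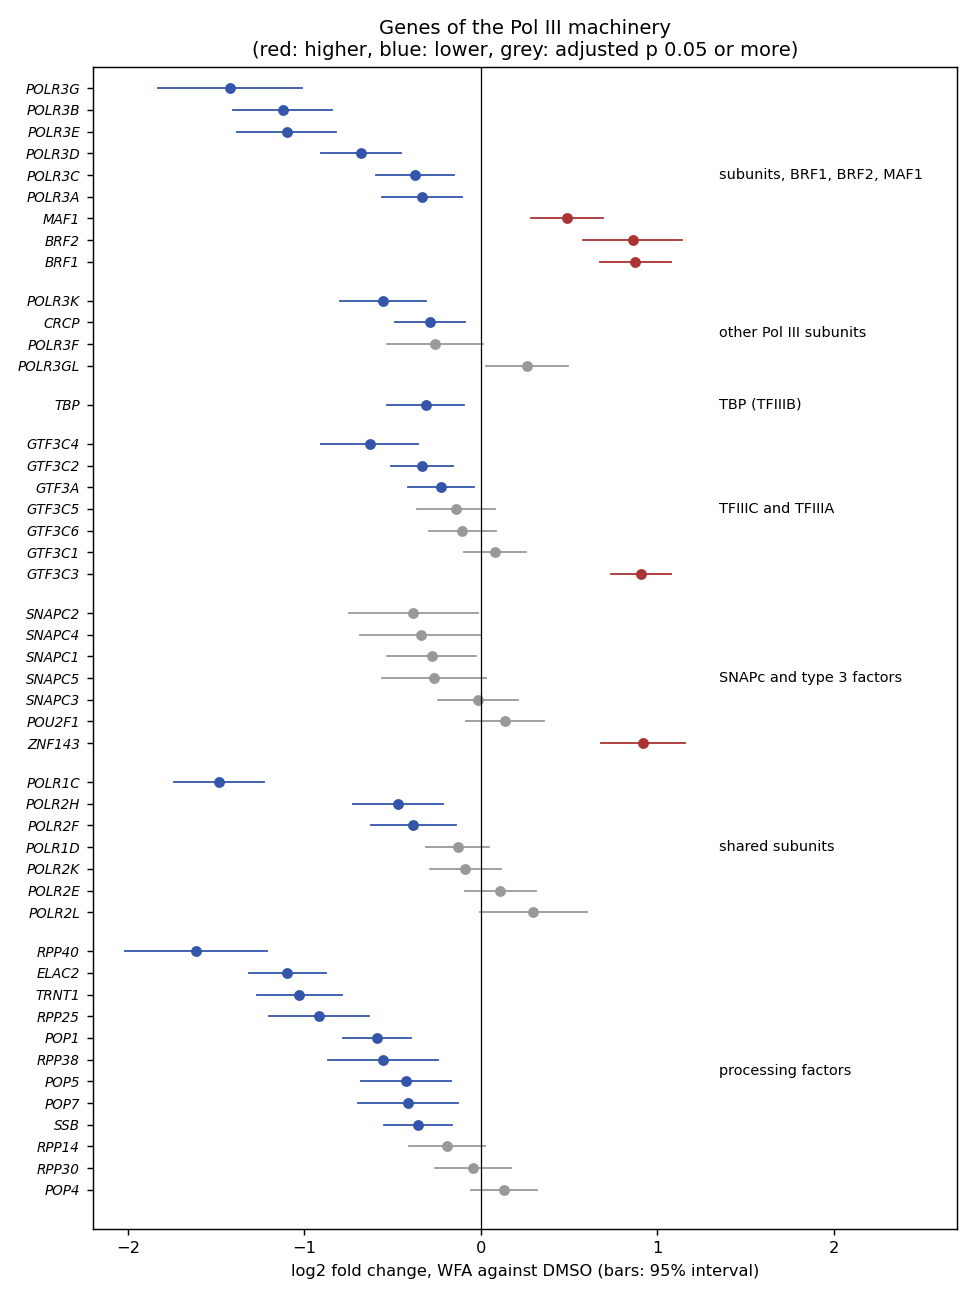
Log2 fold change of WFA against DMSO (horizontal axis) with its 95% interval for the tested genes of the Pol III machinery, grouped by role from the enzyme and its factors at the top to RNA processing at the bottom. Red marks genes called higher, blue genes called lower and grey those with an adjusted p of 0.05 or more. The called rises are BRF1, BRF2, MAF1, GTF3C3 and ZNF143.

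Subunits that Pol III shares with other polymerases were mixed. Of 7 such genes 3 were lower, with a median log2 fold change of -0.13. POLR1C, shared with Pol I, fell most, from 50.4 ± 3.55 to 18.0 ± 2.56 CPM (SD, n = 3 in both groups), a log2FC of -1.48 (SE 0.12, edgeR adjusted p = 1.23e-07). POLR2H had -0.47 (edgeR adjusted p = 0.00402) and POLR2F -0.38 (edgeR adjusted p = 0.0102). Subunits of the sister enzymes are given for scale. All 5 tested subunits specific to Pol I were lower, with a median log2 fold change of -1.67 and the largest change, -2.30, in CD3EAP. Of 7 specific to Pol II 2 were lower, POLR2D and POLR2B, near the 24.7% of all genes tested, with a median of -0.12. Whether the 3 enzymes differ was not tested. ZNRD1 of Pol I had no read in any library, so its level cannot be read from these counts.

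Among 13 known regulators of MAF1 and Pol III, 5 were lower and 2 were higher, beside 24.7% and 25.8% of all genes tested. The median log2 fold change of the list was -0.14. MYC had the lowest value, -2.21 (SE 0.09, edgeR adjusted p = 2.49e-10). PPP2CB, a catalytic subunit of the phosphatase PP2A, rose from 119 ± 10.6 to 242 ± 10.4 CPM (SD, n = 3 in both groups), a log2FC of 1.03 (SE 0.09, edgeR adjusted p = 2.93e-07). PPP2CA, the other catalytic subunit of PP2A and the more abundant one with DMSO, went the opposite way, from 285 ± 7.59 to 244 ± 9.26 CPM (log2FC -0.22, SE 0.08, edgeR adjusted p = 0.0325). Among the regulators called lower, PPP2CA was nearest to the threshold. With single libraries left out, 4 to 5 regulators were called lower. RB1, the retinoblastoma protein, which represses Pol III, had -0.68 (SE 0.10, edgeR adjusted p = 3.21e-05). Also called higher was PPP4C, a related catalytic subunit known to dephosphorylate MAF1 (log2FC 0.39, edgeR adjusted p = 0.012, in groups that overlapped). PPP2CA and PPP4C were named after their values had been seen.

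Most factors that process Pol III transcripts fell. Of 12 tested genes 9 were lower, beside 24.7% of all genes tested, and 3 did not pass. Their median log2 fold change was -0.49. RPP40, of the ribonuclease P family that trims the 5′ end of transfer RNAs, had -1.61 (SE 0.19, edgeR adjusted p = 5.7e-06). ELAC2, which cuts the 3′ end, had -1.10 (SE 0.10, edgeR adjusted p = 5.8e-07). TRNT1, which adds the terminal CCA, had -1.03 (SE 0.11, edgeR adjusted p = 2.94e-06). RPP21 had no read in any library, so its level cannot be read from these counts.

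Few reads fell on the RNAs that Pol III makes. The kit selects RNA with a poly(A) tail, which these RNAs as a rule lack. Of 16 such RNAs 4 passed the filter, and none was called by edgeR or DESeq2, nor at an unadjusted edgeR p-value under 0.05. RN7SK, which holds the elongation factor P-TEFb in check, had 97, 55 and 53 reads in DMSO replicates 1, 2 and 3 and 104, 80 and 51 in the WFA replicates (log2FC 0.33, 95% interval -0.17 to 0.84). RMRP, the RNA of ribonuclease MRP, had 37, 15 and 10 reads with DMSO and 43, 14 and 12 with WFA (0.30, 95% interval -0.70 to 1.29). In both groups replicate 1 had the most reads of both RNAs. The same held for RN7SL1, the RNA of the signal recognition particle, with 41, 22 and 16 reads against 35, 27 and 24 (log2FC 0.27, 95% interval -0.37 to 0.91). RPPH1, the RNA of ribonuclease P, had 21, 4 and 13 reads against 17, 9 and 9 (log2FC 0.02, 95% interval -0.95 to 1.00). Leaving out single libraries moved the log2FC of RN7SK between 0.11 and 0.59, of RN7SL1 between 0.06 and 0.65, of RMRP between -0.48 (without WFA replicate 1) and 0.93 (without DMSO replicate 1), and of RPPH1 between -0.40 (without DMSO replicate 2) and 0.51 (without DMSO replicate 1). All 4 intervals reach from below 0 to above it, so no direction was detectable at this depth, and these poly(A)-selected reads are no measure of Pol III output.

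**Figure D5:**
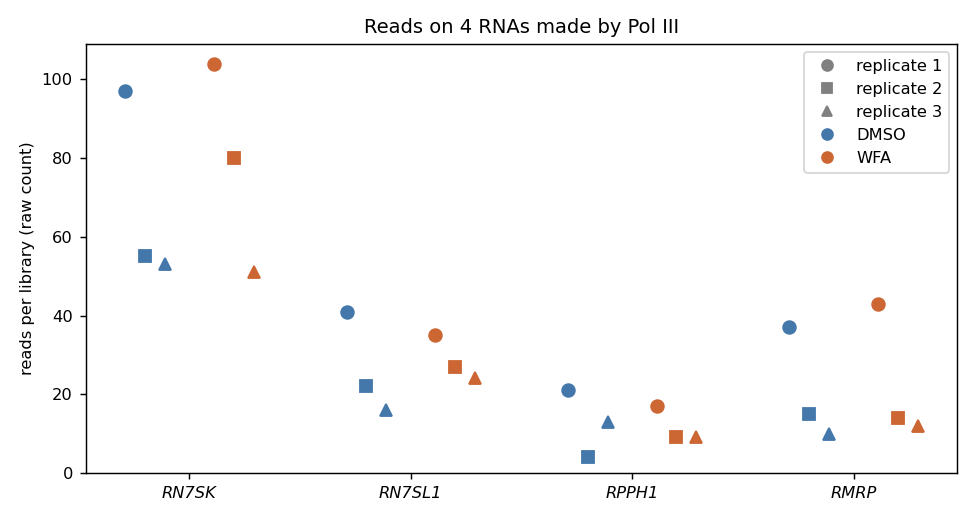
Raw reads per library (vertical axis) on RN7SK, RN7SL1, RPPH1 and RMRP, with DMSO in blue, WFA in orange and a marker shape per replicate. Replicate 1 is highest in both groups for each RNA, and the groups overlap.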

How the data were processed

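Whole-number read counts per gene, without normalization, were deposited by the authors from TruSeq RNA v2 libraries. Per the labels, the submitters' processing notes name bcl2fastq 2.19, Trimmomatic, Bowtie2, Picard, featureCounts, DESeq2 and the build hg38. Counting options are not given in the sources used here. The deposited scaled score (counts divided by size factors) was not used, nor were the authors' fold ratios, log2 values and p-values. Counts were normalized by TMM and tested with edgeR 4.0.16 in R 4.3.3 (filterByExpr, minimum count 10, quasi-likelihood test, group only), with Benjamini-Hochberg adjustment over 12854 genes and a threshold of 0.05. Standard errors were derived from the log2 fold change and the F statistic of the test. Intervals of 95% built on them carry no adjustment over genes. The test was checked on simulated data. Depth was 11006035 to 13872810 counts per library. The 9 members and all lists were chosen with earlier results of these data known, and the lists were written from general knowledge. Genes named are the 9 members, the other Pol III and TFIIIB subunits, up to 3 called genes per further list with the smallest p-value and 1 called against its direction, and Pol III RNAs that passed the filter. A few listed items are not reported here and are left out of the list counts. Replicate numbers pair the libraries, since same-numbered libraries carry the same suffix of digits in their labels. That they share an experiment is inferred from this suffix. Their deviations from the group means correlated across genes at 0.23, 0.33 and 0.26, against -0.26 to -0.01 for other pairings. Negative values in the other pairings follow in part from centring on the group means. Alternatives were the replicate block, DESeq2 1.42.0, other scalings, no filter, a robust fit and leaving out each library. Promoters are from RefSeq (GRCh38.p14) and exon lengths from GENCODE 29, on the same build as hg38.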

Additional observations from a re-analysis of the deposited data

How the results depend on the processing

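The 9 genes kept their direction in 13 alternative fits each, and 115 of these 117 refits kept the call, the exceptions being POLR3A without DMSO replicate 3 and without WFA replicate 1. Its log2 fold change ranged from -0.38 to -0.26 with single libraries left out. The median over the 9 genes was -0.46 with total counts in place of TMM and ranged from -0.44 to -0.27 with libraries left out, and POLR3F then passed with total counts (log2FC -0.35, edgeR adjusted p = 0.0363). SNAPc genes called lower numbered 3 with the replicate block, 4 with total counts, 1 with no filter and 0 to 2 with libraries left out. With the block, 1 other Pol III subunit (POLR3GL) and 1 shared subunit (POLR2L) were called higher, and 0 to 1 each with libraries left out. Among the genes and counts reported, the block changed no other call. Left-out libraries also gave 1 to 2 regulators higher (PPP4C was lost without DMSO replicate 3) and 0 to 1 TFIIIB gene (TBP) lower. Other Pol III subunits called lower then numbered 1 to 2 (CRCP was lost without WFA replicate 2). Called lower in these fits were 4 to 5 regulators, 2 to 3 TFIIIC and TFIIIA genes and 8 to 9 processing factors. With total counts these numbered 7, 3 and 10, and 4 shared subunits were lower. The log2 ratio of BRF1 to BRF2, 0.03 between groups, ranged from -0.09 to 0.13, with -0.01 without DMSO replicate 1 and -0.091 without WFA replicate 2, and that of POLR3G to POLR3GL from -1.84 to -1.46. The blocked values of these ratios are the means of the same-numbered differences. With complete pairs they equal the unblocked ones, 0.03 and -1.69, by arithmetic, and are no further check. Where a call changed, the cause was not tested. Depth limits POLR3G, at 30 to 50 reads with WFA, and the Pol III RNAs.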
